A study of Drosophila melanogaster with 6 samples.

Results

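A set of 97 genes read higher in Drosophila melanogaster embryos from brakeless mutant female germ lines than in control embryos, out of 11982 genes measured. Expression was measured on Affymetrix arrays, 3 per group, as log2 values of the RMA method. A gene entered the set when its lowest brakeless value exceeded its highest control value, the brakeless mean exceeded the control mean by at least 0.7 on the log2 scale, and the brakeless mean was at least 5. The genes were thus chosen by these same array values, and their differences are given as a description, with no test. The brakeless group came from females of genotype FRT2R G13 bks278 over FRT2R G13 ovoD1, mated to males with FRT2R G13 bks278 over CyO. The control group had mothers with FRT2R G13 over FRT2R G13 ovoD1, and FRT2R G13 fathers. Both groups were pools of dechorionated embryos, 2 to 4 h old, collected at 25 °C. In such crosses the dominant ovoD1 mutation blocks egg laying from germ cells that have not recombined, so the eggs come from homozygous germline clones. The labels do not describe the lesion in bks278, and the array descriptions of the brakeless group carry the code BKSB97 in place of that allele name. The description of control replicate 3 carries the number 4. By the cross, embryos of 1 brakeless pool differed in their zygotic sbb genotype, and some carried the CyO balancer chromosome. In pooled RNA, fewer cells that express a gene and less RNA per cell cannot be told apart.

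Brakeless, the product of sbb, is a nuclear protein that works with corepressors such as Atrophin to lower transcription of its target genes in the blastoderm. The early embryo starts with RNA loaded by the mother, and its own genome takes over as this RNA is cleared. A transcript that reads higher in such a comparison can be zygotic, maternal, or both, and the arrays do not separate these sources.

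The 6 arrays had medians between 3.59 and 3.73 on the log2 scale. Control replicate 3 had a mean correlation of 0.964 with the other arrays, and the other 5 had 0.979 to 0.986. The mutated gene sbb read 4.80 in brakeless and 6.26 in control embryos (group means) on its brightest probe set, a difference of -1.46 (limma adjusted p = 0.320), and its other 2 probe sets differed by 0.08 and 0.11. Without knowing which part of the transcript bks278 affects, these values do not check the labels. Genes of cellularization, the step the blastoderm passes at this age, averaged 8.30, 8.43 and 8.83 on the brakeless arrays and 9.32, 9.09 and 8.85 on the control arrays, and all 5 differed negatively, none past the limma test. The 11 measured eggshell and follicle genes averaged between 3.71 and 3.97, close to the median of all probe sets (3.67).

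The rule worked in steps. All 3 brakeless values lay above all 3 control values in 572 genes (4.77% of those measured), 102 of these differed by at least 0.7, and 97 (0.81%) also had a brakeless mean of at least 5. The mirrored rule, with the signs turned, kept 193 genes (1.61%) that read lower in brakeless embryos. Differences in the 97 genes ran from 0.71 to 3.54, with a median of 1.03, or 2.05-fold. Over all genes the median difference was -0.01. In 54 genes the difference was at least 1, in 12 it was at least 2 and in 2 at least 3. The members just inside the limit were CG17612 at 0.710, CG7745 at 0.709 and l(2)k09022 at 0.708. Just outside it were ath at 0.697, PGRP-LE at 0.696 and Ctr1A at 0.692.

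The lowest brakeless and highest control values were far apart in only part of the set. This gap was at least 1 in 14 genes and at least 0.5 in 31. It was under 0.1 in 25 genes, and in Veneno, CG1233 and CG17612 the 2 groups met to within rounding. Limma, fitted to all 18769 probe sets, called 6 of the 97 genes higher at an adjusted p under 0.05, and these were Cyp12a4, CG32795, CG14879, mth, Ir76a and CG3032. It called 0.032% of all probe sets and 0.0501% of all genes higher, and since the rule used this same contrast, nothing is read from the share among the 97. None of the 6 was called when brakeless replicate 1, brakeless replicate 2 or control replicate 2 was left out, or with the replicate number as a block. Without brakeless replicate 3 only CG32795 was called, and without control replicate 1 only CG14879, CG32795 and mth.

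**Figure D1:**
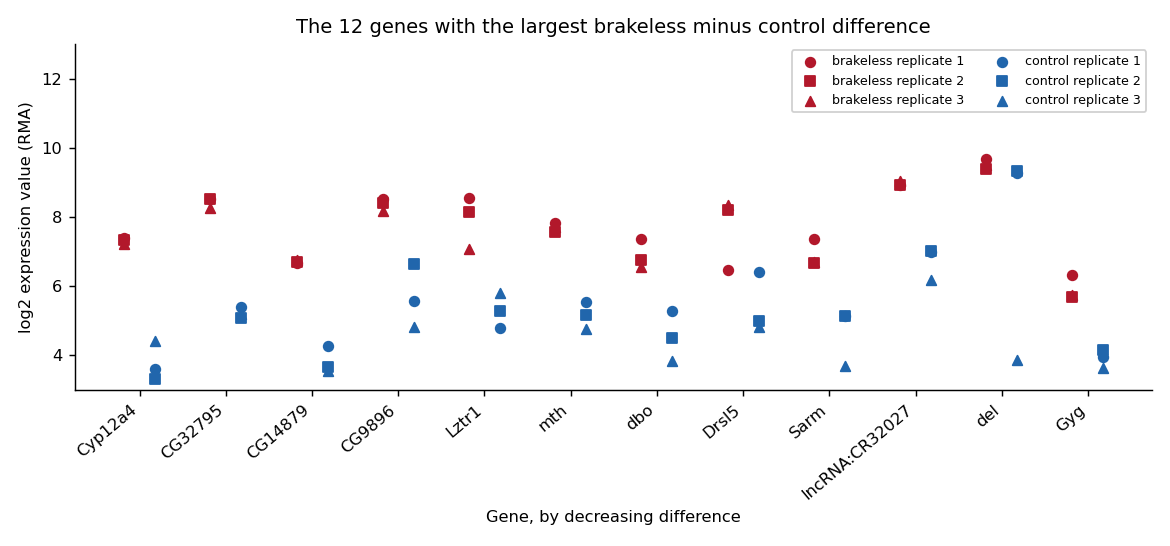
RMA log2 values of the 12 genes with the largest difference, for each brakeless array (left, red) and control array (right, blue), with the replicate number as the marker shape. The 12 genes have every brakeless value above every control value, by the rule; in del, control replicates 1 and 2 lie just below the brakeless arrays and control replicate 3 lies at 3.85.

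A pair of mitochondrial cytochromes P450 of the Cyp12 group, enzymes that oxidise small lipophilic compounds, belonged to the set. Replicates are given in the order 1, 2, 3 throughout. Cyp12a4, on 3R, read 7.38, 7.32 and 7.22 in brakeless embryos, against 3.59, 3.31 and 4.398 in control embryos. This was the largest difference of the set, at 3.54 (limma SE 0.28), or 11.6-fold, and its control values were close to the median of all probe sets, where RMA compresses differences. Cyp12c1, on 3L, read 6.32, 5.84 and 5.80 in brakeless and 5.27, 4.29 and 4.54 in control embryos, a difference of 1.29 (limma SE 0.29). The other 4 measured Cyp12 genes read between -0.07 and 0.24, none past the test, and Cyp12a5, the measured gene next to Cyp12a4 on one side, differed by -0.07 at means of 2.74 and 2.80 in brakeless and control embryos. Over all 83 measured P450 genes the median difference was -0.06, with 1 called higher and 1 called lower by limma.

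The functional groups that follow were made after the genes were known. How many genes of each whole group were measured was not counted. The sizes of these groups are therefore not set against the 0.81% of all genes kept. Receptors, channels and transporters of the cell surface gave 6 members. The gene mth encodes Methuselah, a G protein-coupled receptor known for its effect on adult lifespan, and it read 7.83, 7.56 and 7.71 in brakeless and 5.54, 5.15 and 4.76 in control embryos, or 5.86-fold. Its relative mthl8 read 5.95, 5.96 and 6.11 in brakeless and 4.15, 3.55 and 4.51 in control embryos, or 3.82-fold. A second, dim probe set of mthl8 read 4.09 in brakeless and 3.36 in control embryos on average, also without overlap between the groups. The other 13 measured genes of the methuselah family differed by -0.35 to 0.28, with a median of -0.07 and no limma call, and mthl10, the measured gene next to mth on one side, differed by 0.28 at a mean of 3.21 in brakeless embryos.

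Ir76a, of the ionotropic chemoreceptor family, read 5.38, 5.34 and 5.06 in brakeless and 3.63, 3.39 and 3.45 in control embryos. The groups were 1.43 apart, and its means were low in both, at 5.26 in brakeless embryos, just above the limit of the rule, and 3.49 in control embryos, the lowest of the 97 genes. Only 2 of the 53 measured ionotropic receptor genes reached the brakeless mean of 5 that the rule requires, and the median difference over all 53 was 0.04. The channel gene ppk29, of the pickpocket sodium channels, differed by 1.10 with a tight spread (SD 0.07 over the 3 brakeless arrays and 0.18 over the 3 control arrays). Orai, the pore of the store-operated calcium channel, differed by 0.87, and by 0.39 without control replicate 3, where the rule no longer kept it. Its other probe set differed by 0.53, with overlapping groups. The amino acid transporter gene path differed by 1.49, and by 0.89 without control replicate 3.

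Ubiquitin ligase components, which attach ubiquitin to proteins bound for degradation or relocation, gave 7 members, a grouping made after the genes were known. Cul3 is the scaffold of one class of ligases, and Lztr1 and dbo encode BTB-Kelch proteins, the class of adaptors that bring substrates to it. Lztr1, on the X, read 8.54, 8.14 and 7.07 in brakeless and 4.79, 5.28 and 5.79 in control embryos, or 6.18-fold. The gene dbo, on 3L, read 7.37, 6.74 and 6.56 in brakeless and 5.28, 4.49 and 3.82 in control embryos, or 5.13-fold. In both adaptors the gap between the groups was wide, at 1.28 for Lztr1 and 1.29 for dbo. Cul3 itself read 9.01, 9.01 and 8.94 in brakeless and 8.73, 8.74 and 7.28 in control embryos, so its difference of 0.74 was 0.25 without control replicate 3. Of the F-box genes, which encode adaptors of a related ligase class, CG5961, listed by RefSeq as FBXO9, differed by 1.90, and CG30466, listed as FBXO19, by 1.11. The ligases Rnf146 and Ufd4 differed by 1.04 and 0.72. Without control replicate 3, CG30466 was at 0.41, Rnf146 at 0.54 and Ufd4 at 0.34. Of these 7 genes, 3 (Lztr1, dbo and CG5961) were kept by the rule without control replicate 3.

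A trio of genes of defence and injury responses stood in the set. Drsl5, a relative of the antifungal peptide gene Drosomycin, varied widely, at 6.47, 8.19 and 8.35 in brakeless and 6.40, 4.999 and 4.81 in control embryos. Its difference of 2.27 had a limma SE of 0.64, and brakeless replicate 1 came within 0.07 of control replicate 1. The 6 other Drosomycin family genes measured differed by -0.62 (Drs) to 0.19. Sarm, whose product is a TIR-domain enzyme known for driving axon degeneration, read 7.37, 6.66 and 6.70 in brakeless and 5.14, 5.12 and 3.70 in control embryos. Its 8 other probe sets were all dim, with means under 4 in both groups, and differed by -0.54 to 0.36. The gene pst, known for its effect on resistance to a picorna-like virus, differed by 1.09 (7.36 ± 0.29 in the brakeless group, against 6.27 ± 0.32 in the control group, SD, n = 3).

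The piRNA pathway, by which the germ line silences transposons with small RNAs, gave 4 members, and 3 of them turned on control replicate 3. Deadlock, encoded by del, and Moonshiner, encoded by moon, act together in the transcription of piRNA clusters. The gene del read 9.67, 9.38 and 9.50 in brakeless and 9.27, 9.32 and 3.85 in control embryos. Without the last array its difference was 0.22 in place of 2.04. Veneno, a Tudor-domain protein gene known for a piRNA role in mosquitoes, read 9.97, 9.59 and 9.61 in brakeless and 9.59, 9.54 and 6.81 in control embryos, and its difference of 1.08 was 0.16 without control replicate 3. For nxf2, which encodes a nuclear export factor variant needed for silencing by piRNAs, the difference was 0.71, and 0.52 without that array. The gene moon was low on another control array, at 8.77, 8.66 and 8.80 in brakeless and 8.10, 6.95 and 8.16 in control embryos. Its difference of 1.01 was 1.22 without control replicate 3 and 0.62, under the limit of the rule, without control replicate 2. Each of the 4 genes was thus lost when some single array was left out. Mov10, an RNA helicase gene, was low on control replicate 3 (9.40, 9.19 and 9.38 in brakeless and 8.97, 8.76 and 5.95 in control embryos), and its difference of 1.43 was 0.46 without it.

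Genes of DNA damage responses and repair gave 4 members. The kinase gene tefu, the fly ATM, read 7.97, 7.37 and 7.13 in brakeless and 7.001, 7.08 and 4.53 in control embryos. WRNexo, an exonuclease gene, read 9.95, 9.998 and 10.10 in brakeless and 9.79, 9.63 and 8.14 in control embryos. Both therefore depended on 1 low control array, and their differences of 1.29 and 0.83 were 0.45 and 0.31 without it. Dna2, a helicase and nuclease gene, and Tti1, whose product helps to stabilise kinases of the ATM class, differed by 0.86 and 0.85, and by 0.85 and 0.80 without control replicate 3.

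Genes of patterning, polarity and adhesion gave 5 members and the Dpp pathway 2. Dad, the inhibitory Smad that damps signalling by the BMP ligand Dpp, read 6.68, 6.32 and 6.06 in brakeless and 5.01, 5.07 and 3.71 in control embryos, a difference of 1.76 (1.31 without control replicate 3). The gene tkv, encoding a type I receptor for Dpp, read 10.06, 9.89 and 9.96 in brakeless and 9.72, 9.83 and 8.21 in control embryos, and its difference of 0.72 was 0.19 without control replicate 3. Its second probe set, nearly as bright, pointed the other way, at 9.22 in brakeless and 9.79 in control embryos on average, a difference of -0.58 with overlapping arrays. The Dpp pathway genes outside the set that were measured (sax, put, Mad, shn, dpp and Med) differed by -0.28 (Mad) to 0.91 (shn), none past the limma test. The gene insc, which orients asymmetric divisions of neural stem cells, read 8.53, 7.84 and 6.58 in brakeless and 5.29, 6.30 and 5.97 in control embryos. The gene px, needed for the wing vein pattern, differed by 1.75 with and without control replicate 3. The head gap gene ems differed by 0.91 and the adhesion gene sdk by 0.72, and by 0.42 and 0.41 without control replicate 3. The junction protein gene smash differed by 1.19, and by 1.23 on its other probe set, both with control replicate 3 lowest, and the first was 0.60 without that array.

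Enzymes of metabolism gave 8 members spread over unrelated pathways. Gyg, encoding glycogenin, the primer of glycogen synthesis, read 6.32, 5.68 and 5.73 in brakeless and 3.94, 4.16 and 3.62 in control embryos, or 4.01-fold, while its other probe set was dim and differed by -0.23. Cht2, a chitinase gene, read 9.27, 9.89 and 8.53 in brakeless and 7.11, 6.81 and 8.50 in control embryos, so its groups touched at brakeless replicate 3 and control replicate 3. Smaller differences were found for 5PtaseI, an inositol polyphosphate phosphatase gene (1.08), Ect3, a beta-galactosidase gene (1.04), Mocs1 of molybdenum cofactor synthesis (1.03) and Sps2, a selenophosphate synthetase gene (0.98). Acox57D-p, a peroxisomal acyl-CoA oxidase gene, differed by 0.89, and Gpdh3, a glycerol-3-phosphate dehydrogenase gene, by 0.85. All but Sps2 and Gpdh3 were kept without control replicate 3, where these were at 0.63 and 0.54.

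Among genes of RNA and protein synthesis, Wdr33 of mRNA 3′ end processing (0.99) and Polr2M, an RNA polymerase II inhibitor known from mammals (0.83), were kept without control replicate 3. The RNA-binding protein gene caz (0.85) and Clbn, of ribosome-associated quality control (1.06), were not, at 0.50 and 0.30. The set held 1 long non-coding RNA, lncRNA:CR32027, at 8.93, 8.93 and 9.03 in brakeless and 6.98, 7.02 and 6.17 in control embryos, or 4.74-fold. Its brakeless arrays agreed within an SD of 0.06 (n = 3), and 10 of the 85 non-coding RNA genes measured reached a brakeless mean of 5.

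In all, 52 genes were placed in no functional group, 40 of them known only by an annotation number. Mov10 and lncRNA:CR32027, described above, are among the 52, and the latter is also among the 40. CG32795 on the X read 8.52, 8.51 and 8.25 in brakeless and 5.40, 5.08 and 5.19 in control embryos, and had the widest gap of the set, at 2.85. CG14879 on 3R read 6.67, 6.69 and 6.76 in brakeless and 4.26, 3.65 and 3.53 in control embryos. CG9896 on 2R read 8.53, 8.39 and 8.17 in brakeless and 5.58, 6.63 and 4.80 in control embryos, or 6.46-fold. These 3 unnamed genes were thus among the 4 with the largest differences. Differences of the 52 genes ran from 0.71 to 3.20 with a median of 0.94, and 26 of them were kept without control replicate 3. Those with a known role included wake, a regulator of the timing of sleep, at 1.25, and Arc2, which encodes a relative of retrotransposon Gag proteins, at 0.95. CG3032 differed by 1.30 and CG7694 by 0.93, both with an SD of at most 0.14 in either group (n = 3 each). Names of this kind made up 43.3% of the set, 44.1% of all genes and 31.6% of the 5865 genes with a brakeless mean of at least 5.

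**Figure D2:**
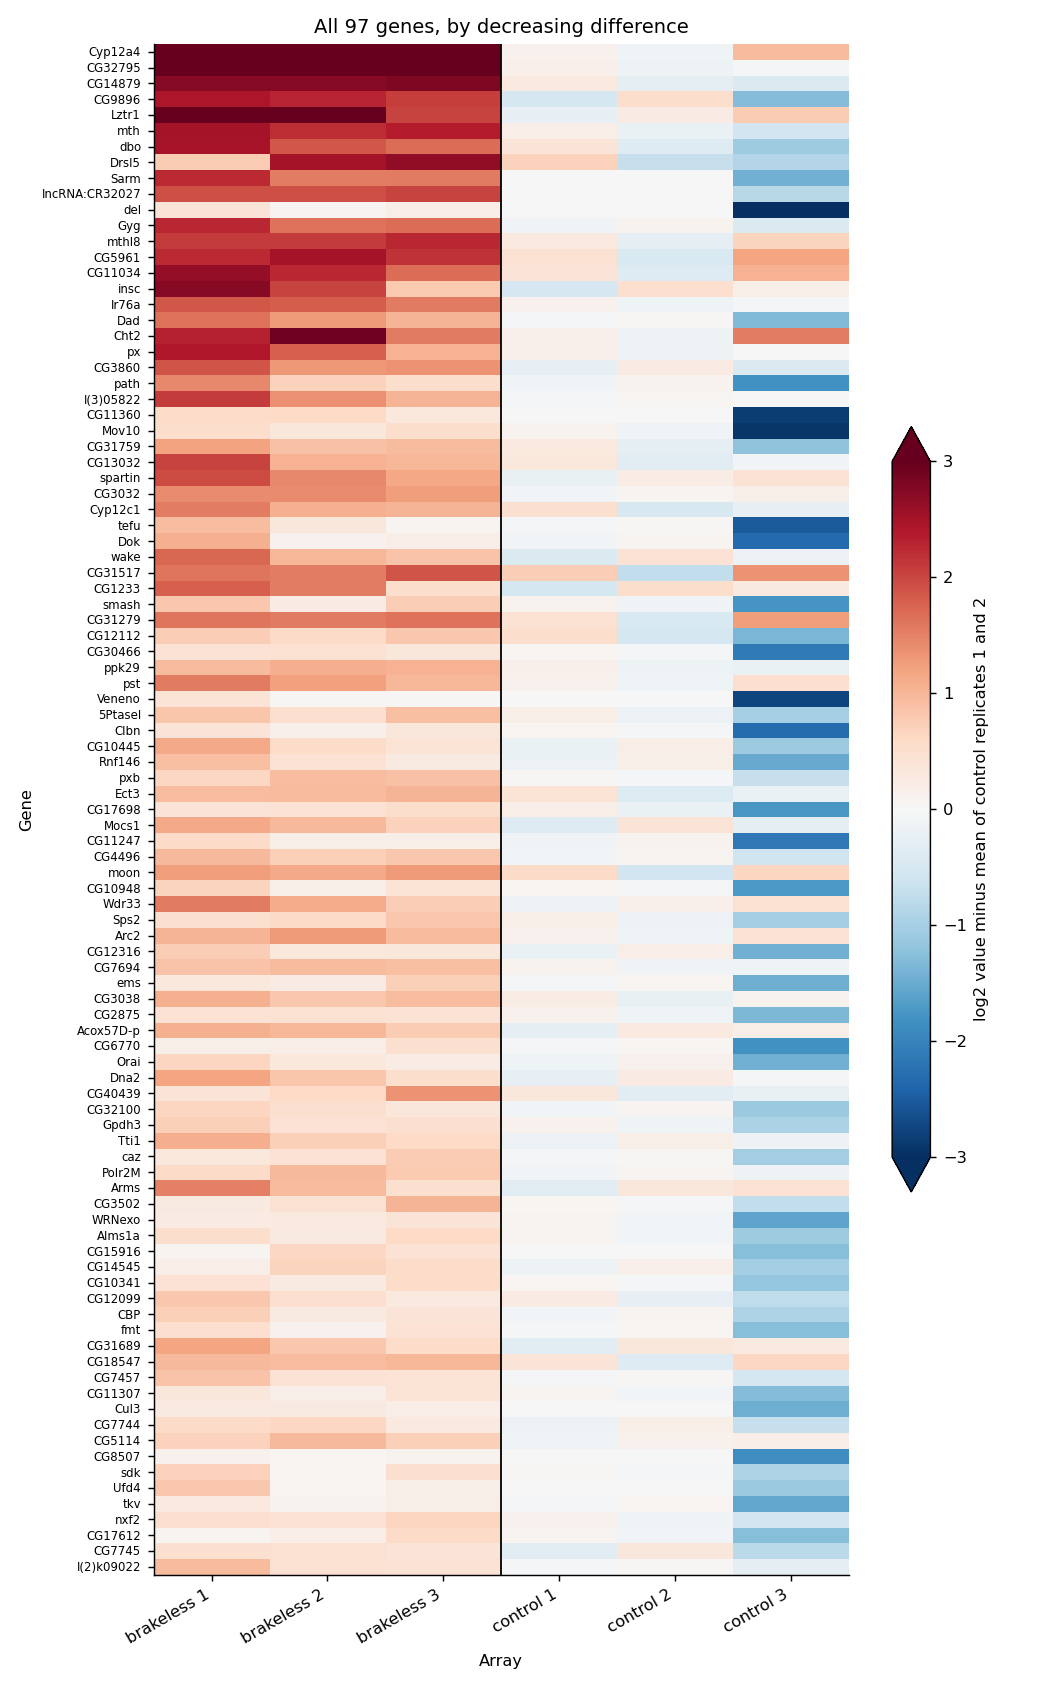
RMA log2 values of all 97 genes on the 6 arrays (brakeless left, control right), each minus the mean of control replicates 1 and 2 for that gene; rows run by decreasing difference and colours saturate at 3 in either direction. The upper rows are raised on the brakeless arrays, while many lower rows differ chiefly by a low value on control replicate 3.

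Control replicate 3 set the membership of a large share of the genes. It was the lowest control array in 63 of the 97 genes (64.9%), against 36.8% of the 5865 genes with a brakeless mean of at least 5. In 42 of the 97 (43.3%) it lay at least 1 below the mean of the other 2 control arrays, against 14.7% of those 5865 genes. Applied without this array, the rule kept 60 genes, of which 53 were among the 97. The 44 genes that dropped out all had control replicate 3 lowest, at a median of -1.33 relative to the mean of the other control arrays. Since the groups stay apart without this array, a gene drops out only when its difference falls under 0.7, so this split largely fixes the low array and the smaller difference. Their median difference was 0.85 with all arrays and 0.45 without it. The 53 genes that stayed had a median difference of 1.29 and 1.28. Among the 12 genes with the largest differences only del dropped out, and of the 43 genes with differences under 1, 13 stayed.

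**Figure D3:**
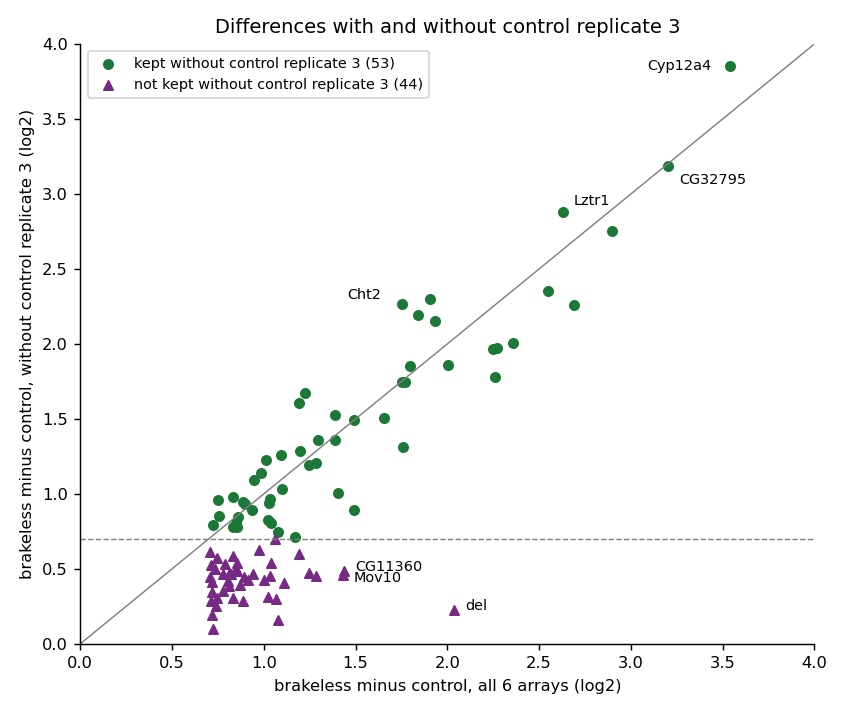
Brakeless minus control difference (log2) of each of the 97 genes over all 6 arrays (horizontal) and without control replicate 3 (vertical); the solid line marks equal values and the dashed line the limit of 0.7. The 53 green points lie above the limit, and the 44 purple triangles lie below it, with del moving most, at 2.04 and 0.22.

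Markers of embryonic age and of maternal RNA also differed between arrays, within both groups. The 8 measured cleared maternal transcripts averaged 10.6, 10.4 and 10.2 on the brakeless arrays and 10.3, 10.4 and 9.61 on the control arrays. The 6 measured pole cell and germ plasm genes averaged 9.98, 9.57 and 9.39 on the brakeless arrays and 9.37, 9.71 and 8.72 on the control arrays. In both lists control replicate 3 was lowest, and none of their genes belonged to the set. Both lists, as drawn up, name osk and nos, so they are not fully separate. Of the 8 maternal transcripts 5 differed positively, with a median of 0.51, and so did all 6 germ plasm genes, with a median of 0.24. The 5 measured muscle genes of older embryos averaged 3.67, 5.46 and 6.52 on the brakeless arrays and 6.32, 7.0 and 5.22 on the control arrays, and all 5 differed negatively. The muscle list was lowest on brakeless replicate 1, and its median difference was -0.84. No gene of these 3 lists passed the limma test. The part of embryonic age or maternal RNA in the differences of the 97 genes was not tested.

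The brakeless arrays differed among themselves as well. Brakeless replicate 1 was the highest of its group in 58 of the 97 genes (59.8%), against 48.4% of the 5865 genes. Replicate 2 was the highest in 15 (15.5%, against 17.1%) and replicate 3 in 24 (24.7%, against 34.5%). The spread was narrower within the brakeless group, with a median SD of 0.21, than within the control group, with a median SD of 0.60. Over the 5865 genes these medians were 0.27 and 0.40. The genes it kept thus had a narrower brakeless spread and a wider control spread than the 5865, and since the same values chose them, this is a description.

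The set was chosen on all arrays, so no array gave a separate reading of its genes. The rule itself was instead tried on part of the arrays. The lists of genes chosen in this way overlapped the set but were not the set. The rule was applied to 4 arrays, leaving out 1 brakeless and 1 control array in each of the 9 possible ways, and the genes it kept were then read on the pair left out. With fewer arrays to separate, it kept 61 to 540 genes. Held-out differences had medians from -0.26 to 1.23, above 0 in 4 of the 9 ways and below 0 in 5. When the held-out pair was brakeless replicate 2 and control replicate 3, all 67 genes kept by the other arrays read higher, with a median of 1.23. Of all genes at that signal 49.6% read higher in this pair, with a median of -0.01. When it was brakeless replicate 1 and control replicate 3, 88.5% of 61 genes did so, with a median of 1.15, against 52.1% of all genes at that signal. With brakeless replicate 3 and control replicate 3 held out, 183 genes were kept and 43.2% of them read higher, against 48.1%. Of these 67, 61 and 183 genes, 53, 48 and 52 belonged to the set. Genes of the set read higher in every pair of arrays by the rule, so these shares are fixed in part by how the set was chosen.

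With control replicate 3 among the 4 arrays that chose, the held-out medians ran from -0.22 to 0.34 and were below 0 in 4 of 6 ways. The share of kept genes with a held-out difference of at least 0.7 was then 7.96% to 24.0%, against 2.20% to 21.7% of all genes at that signal. In the 3 ways with control replicate 3 held out this share was 24.6% to 73.1%, against 20.3% to 25.0%. The 9 ways share arrays, so no p is attached. The sign of the held-out median also went with how the 2 held-out arrays deviated from their group means over all probe sets. These deviations correlated at 0.13 to 0.55 in the 4 ways with a median above 0. In the 5 ways with a median below 0 they correlated at -0.40 to -0.12. The part of such shared deviations in the held-out readings was not tested. Of the 97 genes, 35 were kept in all 9 ways, a count that reuses the values that chose them: their groups are apart in every choice of arrays by the rule, so it shows only that the limits of difference and mean were met each time.

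**Figure D4:**
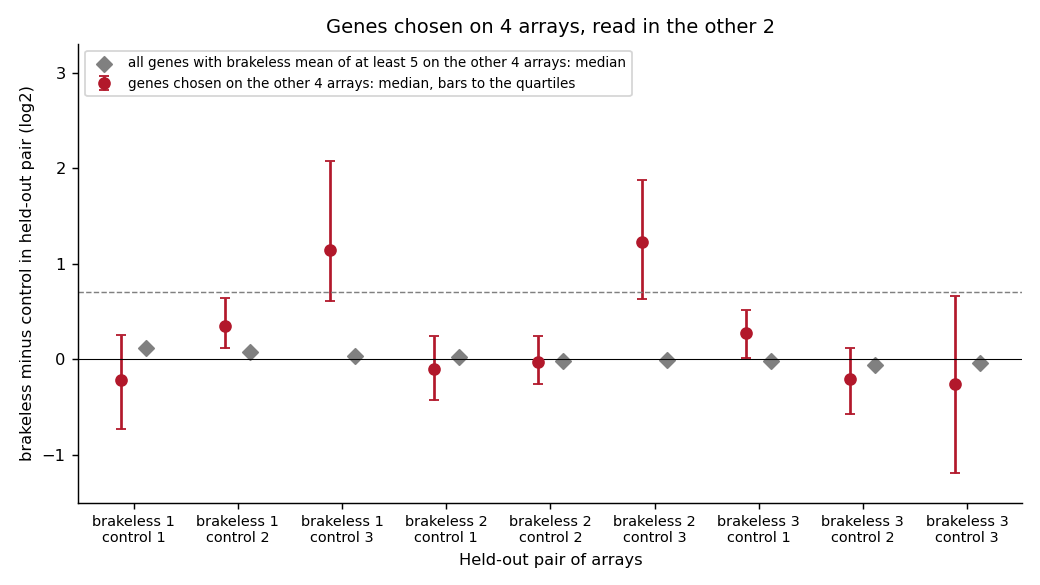
Brakeless minus control difference (log2) in each held-out pair of arrays: red points are medians over the genes the rule kept on the other 4 arrays, with bars to the quartiles, and grey diamonds are medians over all genes with a brakeless mean of at least 5 on those arrays. Only the pairs of brakeless replicate 1 or 2 with control replicate 3 have medians above 0.7, at 1.15 and 1.23.

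The limit of 5 in the rule set the lower end of the brakeless means of the 97 genes. Over all 5865 genes that meet this limit the median brakeless mean was 8.58. Brakeless means ran from 5.08 for CG13032 to 12.50 for CG6770, with a median of 7.91, and control means from 3.49 to 11.6, with a median of 6.62. In brakeless embryos 15 genes had means under 6, 37 between 6 and 8, 37 between 8 and 10, and 8 of at least 10. The control mean was under 5 in 21 of the 97 genes (21.6%), against 1.38% of the 5865 genes. A gene at 5 or more in brakeless embryos and under 5 in control embryos reads higher by definition, so the rule favours such genes. Near such control levels RMA can compress differences, and how far these folds depart from those of the transcripts was not measured. The brightest genes, CG6770 and CG14545, differed by 0.89 and 0.81, and by 0.28 and 0.47 without control replicate 3. The 53 genes kept without that array had a median brakeless mean of 7.36 and the 44 that dropped out one of 8.41.

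All 97 genes could be placed on a chromosome through RefSeq (Release 6 plus ISO1 MT). The third chromosome held 26 genes on 3L (26.8%) and 27 on 3R (27.8%), against 20% and 24.5% of the 5865 genes at a brakeless mean of at least 5. On the second, 14 lay on 2L (14.4%, against 17.8%) and 15 on 2R (15.5%, against 19.9%), the arm that carries sbb and the recombined FRT site. The X held 14 (14.4%, against 17.1%) and the fourth chromosome 1. Of the 12 genes with the largest differences 5 lay on 3L. The shares of arms were not tested.

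**Figure D5:**
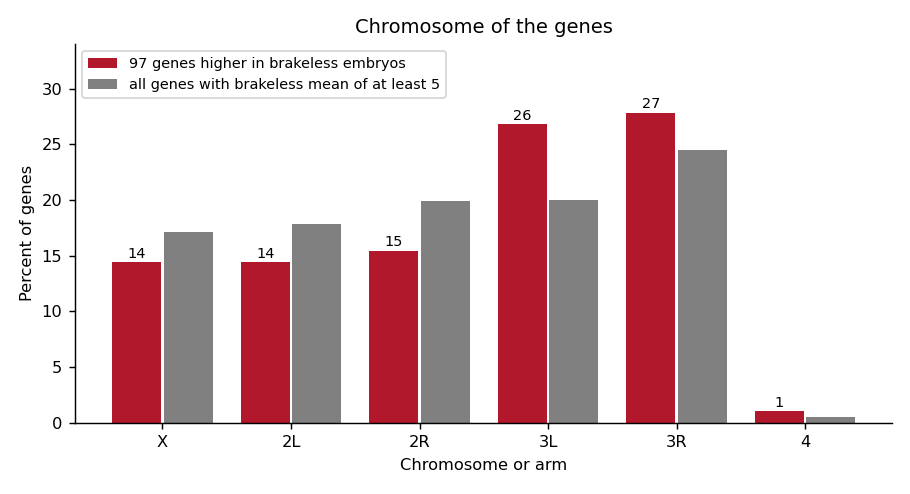
Percent of the 97 genes (red, left bar, with the number of genes above it) and of all 5865 genes with a brakeless mean of at least 5 (grey, right bar) on each chromosome or arm. The 3L bars stand at 26.8% and 20%, and the 2R bars at 15.5% and 19.9%.

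Along the arms, 4 pairs of the 97 genes lay within 20 kb of each other. These were spartin with smash, which were direct neighbours, mth with CG1233, Dok with CBP, and CG18547 with Ect3. Pairs among an equal number of other genes were not counted. The measured genes on either side of the 12 leading genes did not belong to the set, and these 24 flanking genes differed by -2.21 to 0.90, with a median of 0.09. The lowest was kirre, a gene for myoblast attraction and fusion that lies beside CG32795, and it read 3.50 in brakeless and 5.70 in control embryos (limma adjusted p = 0.140). The 97 genes were also long, with a median gene length of 3772 bases in RefSeq, against 2592 for genes with a brakeless mean of at least 5 and 2263 for all.

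The probe sets behind the values were of several kinds. Of the 97 genes, 17 (17.5%) were read by a probe set with the suffix _s_at, whose probes can match transcripts of more than 1 gene, against 13.9% of the 5865 genes. Of the 97 genes, 14 had 21 further probe sets of their own. Of these, 16 read higher and 5 lower in brakeless embryos, with a median difference of 0.10, but 17 had a brakeless mean under 5. The 4 brighter ones belonged to smash (1.23), CG17698 (1.04), Orai (0.53) and tkv (-0.58), and of these the groups were apart only in smash.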

How the data were processed

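The authors deposited log2 expression values per probe set, made with RMA per the submitters' processing notes, with version and settings not given in the sources used here. RMA gives all arrays 1 intensity distribution and compresses differences near background. Control probe sets were left out, leaving 18769, of which 13647 had exactly 1 gene symbol in the platform annotation, 402 several and 4720 none here. Each of 11982 genes was read from its brightest such probe set. Chromosomes and neighbours came from RefSeq by gene number (11893 genes matched). Arrays give no read depth, and 3 per group limit the precision.

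Differences are brakeless minus control. Limma 3.58.1 in R 4.3.3 (no covariate, two-sided, Benjamini-Hochberg over all probe sets, threshold 0.05) gave standard errors and calls, and was tested on simulated data. Summaries and figures used Python 3.11.15 and matplotlib 3.10.9. Replicates are labelled biological, from embryo pools whose separate origin is not described further. The gene set, lists and functional groups were chosen with earlier results of these data known. The rule for named genes gave values per array for the 12 largest differences and for members of listed families, and named the genes next to the limits, the brightest and dimmest pair, pairs within 20 kb and sbb. The functional groups, and the other genes given per array, were picked after their values were seen. Groups share replicate numbers, but deviations of same-numbered arrays correlated at -0.40, -0.23 and -0.32, so the numbers were not taken as pairs. Between arrays of different numbers the correlations ran from -0.29 to 0.55, highest for brakeless replicate 3 with control replicate 1. The main limma fit did not model such shared deviations. Alternatives were each array left out, 2 scalings, the mean of all probe sets, other limits of the rule, and for limma a trended prior, a filter and a replicate block. Promoter and protein sequences were not analysed here.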

Additional observations from a re-analysis of the deposited data

How the results depend on the processing

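The 97 genes became 112 without brakeless replicate 1, 107 after quantile normalization applied again, 103 with centred arrays and 92 when each gene's probe sets were averaged, of which 84, 81, 90 and 88 were among the 97. Leaving out 1 array gave 60 to 314 genes, fewest without control replicate 3 (53 of the 97 among them) and most without control replicate 2 (94 among them). A minimum difference of 0.5 gave 185 genes and one of 1 gave 54. A minimum brakeless mean of 4 gave 101 and one of 6 gave 82. Fewer arrays make the separation of the groups easier to meet. All 97 differences stayed positive under every scaling and array left out, and for arrays left out the rule itself fixes this. Limma's count of 26 probe sets ran from 0 to 33 when 1 array was left out, and was 46 with eBayes trend and robust. With the replicate number as a block it was 0, with 678 at an unadjusted p under 0.05. A count of 0 also came from leaving out control replicate 2 (1427 unadjusted), brakeless replicate 1 (662) or brakeless replicate 2 (532). Among the 97 genes, 6 were called, 8 without control replicate 3 (adding lncRNA:CR32027 and mthl8), and CG3032 lost its call under quantile normalization and under trend and robust. With the block 0 of the 97 were called, without brakeless replicate 3 1, and without control replicate 1 3.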

Other observations

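Of the 5122 probe sets without exactly 1 gene symbol, 10 met the same limits, 5 with several symbols and 5 with none here. Of the 97 genes, 44 were kept by the rule whichever single array was left out.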
